A study of Mus musculus with 16 samples.

Results

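The Hox genes encode homeodomain transcription factors that lie in 4 chromosomal clusters, Hoxa to Hoxd, and they were examined here as a read-out of the position along the body axis from which spinal cord RNA was taken. Members were all probe sets to which the platform annotation gives a single symbol made of Hox, a cluster letter and a paralog number. The rule found 38 of the array's 12488 probe sets, for 31 Hox genes of 8251 genes with a probe set of 1 symbol, with 10 genes in the Hoxa cluster, 9 in Hoxb, 5 in Hoxc and 7 in Hoxd.

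Total RNA from mouse spinal cord had been hybridised to 16 single-colour arrays, which the titles assign to 3 groups: control, spastic and B6C3Fe. Some titles occur with an a and with a b; such a pair of arrays was averaged as 1 sample, because nothing says whether the letters mark separate animals. Samples are numbered as follows. Controls 1 and 2 were titled female and male at 12 months and controls 3 and 4 female and male at 9 months, each with an a and a b array. Spastic sample 1 was titled female at 6 months and had both letters. Spastic samples 2 and 5 were titled female at 2 months, spastic sample 3 was titled sev and male at 3 months, and spastic sample 4 was titled male at 3+ months; these 4 had 1 array each. The B6C3Fe sample was titled male at 1 month and had 2 arrays. Spastic mice are known to carry a mutation of Glrb, which encodes the beta subunit of the glycine receptor; the titles give no genotype for the controls and no segment of the cord. The titled ages of the 3 groups do not overlap, so group and age cannot be told apart. B6C3Fe names a stock, while the titles name none for the control and spastic mice. Whether the stock differs is therefore not known, and any such difference could not be told apart from group and age. Because nothing says that samples came from separate animals, p-values measure only the spread between these samples.

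In vertebrate embryos the genes of each cluster are switched on in their order along the chromosome, so that low paralog numbers reach up to the hindbrain and neck and high numbers are restricted to successively more tail-ward levels. In the cord the paralogs numbered 4 to 8 are characteristic of cervical, brachial and thoracic levels, number 9 of thoracic levels and number 10 of lumbar levels, where Hoxd10 takes part in the patterning of hindlimb motor neurons; paralogs 11 to 13 belong to the sacral and tail region. Much of this code persists in adult cord neurons, so the mixture of paralogs in an RNA sample depends on which segments were collected. In RNA from spinal cord tissue, fewer cells of a type and less RNA per cell cannot be told apart.

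Glrb was between 12.70 and 13.30 (log2 intensity) on the 8 control arrays, between 12.92 and 12.98 on the 2 B6C3Fe arrays and between 9.92 and 11.12 on the 6 spastic arrays. Xist, the transcript that coats the inactive X chromosome of females, was between 10.37 and 10.54 on the 2 spastic arrays titled male, and the Y-linked gene Eif2s3y was above the floor on neither, so these 2 arrays do not match their titled sex. On all 6 spastic arrays Xist was between 10.37 and 11.45 and Eif2s3y was not above the floor. The 2 B6C3Fe arrays showed the reverse. By these genes, sex cannot be told apart from group in spastic minus B6C3Fe and is unbalanced in spastic minus control. The sex term of the model follows the titles. Median intensities ran from 289 to 383.6 per array. The log2 ratio of the 3' to the 5' control probe sets of Pcx, a measure of RNA integrity and labelling length, was 1.31 to 2.72 on control, 2.00 to 2.98 on spastic and 1.67 to 1.89 on B6C3Fe arrays. Neuronal markers were above the floor on all arrays for 7 of 8 genes, and oligodendrocyte and astrocyte markers for 4 of 4 genes each. Of the markers of brain outside the cord, Six3 was above the floor on 1 array, Tbr1 on 2 and Neurod6 on 5 of 16, and the fourth, En2, on all 16. The summed intensity of bone marrow markers was 6112 to 13840 in control, 2142 to 23560 in spastic and 6807 to 7117 in B6C3Fe arrays, and that of muscle markers was 12510 to 18360, 8091 to 18000 and 12350 to 13000. The muscle sum is not an even measure of its 8 genes. Pvalb was the highest of them, between 12.79 and 13.25 (log2 intensity) on all 16 arrays. Myh4 ran from the floor to 10.92 and Tnnt3 from the floor to 9.98. The part of bone marrow and muscle in the Hox values was not tested.

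The 3 genes of the 5' part of the Hoxd cluster that a later comparison turns on, Hoxd9, Hoxd10 and Hoxd11, are neighbours on chromosome 2. The windows printed here run from 250 bases before to 50 bases after each annotated start in RefSeq on GRCm38.p6, and all lie on the plus strand: chr2:74697513-74697812 for Hoxd9, chr2:74691641-74691940 for Hoxd10, and chr2:74679308-74679607 and chr2:74682073-74682372 for the first and second starts of Hoxd11. They are shown because all 3 genes had a higher mean in spastic than in control samples, and they are neighbours. Capitals mark matches to TGATNNAT, the site of Hox proteins paired with PBC cofactors, to AGGTCA, a retinoid receptor half-site, and to CCAAT, a general promoter element, each searched on both strands, so that a match on the minus strand reads as the reverse complement.
Hoxd9: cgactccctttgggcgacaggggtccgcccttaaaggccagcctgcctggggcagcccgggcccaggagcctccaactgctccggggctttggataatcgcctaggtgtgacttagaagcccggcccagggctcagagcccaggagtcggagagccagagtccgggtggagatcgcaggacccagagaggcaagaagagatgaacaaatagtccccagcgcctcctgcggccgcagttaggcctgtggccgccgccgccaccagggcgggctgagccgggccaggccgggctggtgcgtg
Hoxd10: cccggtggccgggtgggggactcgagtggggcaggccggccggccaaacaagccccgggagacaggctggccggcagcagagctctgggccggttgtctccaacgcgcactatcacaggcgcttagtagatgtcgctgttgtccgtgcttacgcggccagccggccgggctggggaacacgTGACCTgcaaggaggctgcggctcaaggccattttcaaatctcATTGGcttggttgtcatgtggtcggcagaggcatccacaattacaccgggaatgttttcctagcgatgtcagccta
Hoxd11 first start: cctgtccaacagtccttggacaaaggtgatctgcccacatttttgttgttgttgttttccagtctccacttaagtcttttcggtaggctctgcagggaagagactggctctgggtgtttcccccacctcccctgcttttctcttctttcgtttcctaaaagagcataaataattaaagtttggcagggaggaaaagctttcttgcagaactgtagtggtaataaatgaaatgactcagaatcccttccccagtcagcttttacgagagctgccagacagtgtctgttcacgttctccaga
Hoxd11 second start: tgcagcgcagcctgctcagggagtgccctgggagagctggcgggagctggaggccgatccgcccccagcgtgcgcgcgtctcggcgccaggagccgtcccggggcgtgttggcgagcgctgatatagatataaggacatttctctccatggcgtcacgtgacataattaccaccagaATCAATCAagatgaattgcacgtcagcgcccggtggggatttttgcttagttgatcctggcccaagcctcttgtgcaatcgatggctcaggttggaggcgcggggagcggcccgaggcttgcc
The Hoxd10 window held AGGTCA on the minus strand, ending 64 bases before the start, and CCAAT on the minus strand, ending 22 bases before it. The second Hoxd11 window held TGATNNAT on the minus strand, ending 66 bases before the start. No match overlapped another, and the Hoxd9 window and the first Hoxd11 window held none of the 3 strings. The strings are common: TGATNNAT was in 8.85%, AGGTCA in 16.3% and CCAAT in 37.4% of all 32851 promoters of this length. Among the 22 windows that the table holds for 20 of the 31 Hox genes, they were in 4, 5 and 13. The Hox windows were rich in CpG, with a median of 14.5 CpG against 7 over all promoters and a median GC content of 58.7% against 52.7%. Within the 4 windows shown, CpG counts were 20 for Hoxd9, 22 for Hoxd10, and 4 and 25 for the first and second starts of Hoxd11.

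Hox probe sets lay above the floor about as often as all probe sets of the array. The floor was the 20th percentile of all values, a log2 intensity of 5.93, and 26 of the 38 Hox probe sets (68.4%) lay above it on all 16 arrays, against 64.4% of all 12422 probe sets that are not controls. Counted by gene, 24 of 31 had at least 1 such probe set. The share depended on the paralog number. All 8 genes of paralogs 6 to 8 and all 4 genes of paralog 9 were above the floor on every array, as were 9 of the 11 genes of paralogs 1 to 5, but only 3 of the 8 genes of paralogs 10 to 13.

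Among the head-ward genes, the paralogs that reach into the hindbrain gave mixed results. Hoxb1, which specifies the fourth hindbrain segment in the embryo, was above the floor on all 16 arrays, at 8.05 ± 0.32 in control samples (log2 intensity, mean ± SD of sample values, n = 4), and Hoxa2, a regulator of hindbrain and branchial arch identity, was at 8.48 ± 0.23 (n = 4). Hoxd1, which is linked to pain-sensing neurons of dorsal root ganglia, was at the floor on most arrays: its probe sets exceeded it on 4 and 5 of 16. Hoxb4, a cervical gene, exceeded it on 8 of 16. Levels of different probe sets are not comparable with each other, as the 4 probe sets of Hoxa4 show: they averaged from 5.93, the floor, to 10.85 over the 16 arrays. Each gene is therefore compared only with itself across arrays.

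At the tail end of the code, Hoxa13 and Hoxd13, which pattern the digits and the tail region, did not exceed the floor on any array. Hoxd12 did so on 1, the B6C3Fe array a, at 6.63. Hoxb13, a gene of the tail bud, exceeded it on 15 of 16 arrays. Hoxa10 and Hoxa11 were above it on all 16 arrays, with control means of 7.45 ± 0.22 and 7.60 ± 0.29 (n = 4), and both fell below the mean level of 7.62 required for testing. Hoxd11 was above the floor on 5 of 8 control arrays, 6 of 6 spastic arrays and 0 of 2 B6C3Fe arrays. The number of probe sets above the floor varied little between arrays: 10 or 11 of 11 for paralogs 6 to 8, 4 of 4 for paralog 9 and 4 or 5 of 8 for paralogs 10 to 13.

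**Figure D1:**
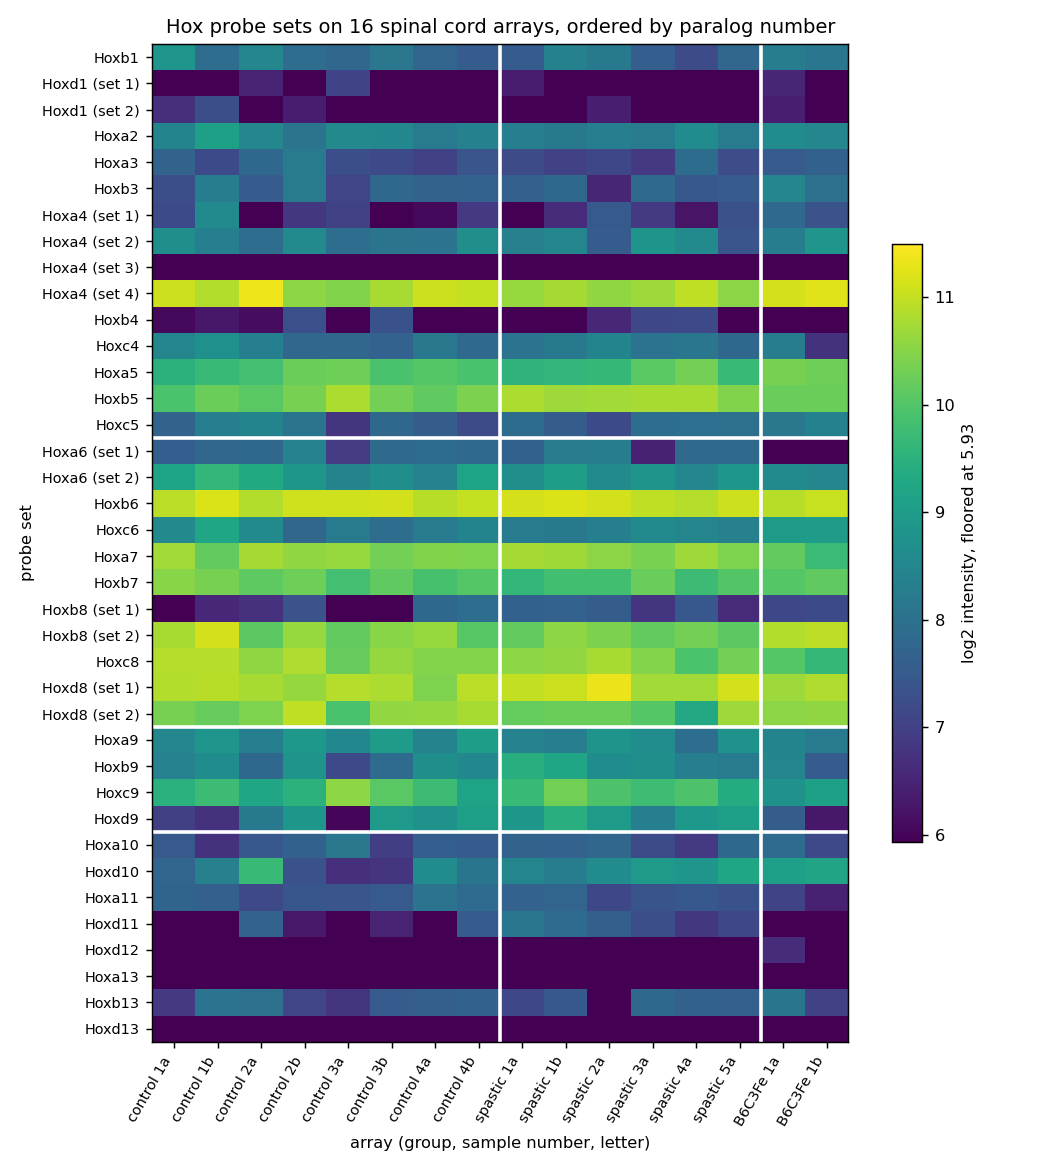
Heat map of the log2 intensity of the 38 Hox probe sets (rows, ordered by paralog number, with white lines at paralogs 6, 9 and 10) on the 16 arrays (columns, with white lines between control, spastic and B6C3Fe). Paralogs 6 to 9 were above the floor of 5.93 in every gene, while Hoxd1, Hoxd12, Hoxa13 and Hoxd13 were dark on most or all arrays; colours compare arrays within a row, not rows with each other.

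The mean level was high enough to test in 21 of the 31 Hox genes, among them all 8 of paralogs 6 to 8, all 4 of paralog 9, 8 of the 11 of paralogs 1 to 5 and 1 of the 8 of paralogs 10 to 13, Hoxd10. The 10 genes that were not tested were Hoxa3, Hoxa10, Hoxa11, Hoxa13, Hoxb4, Hoxb13, Hoxd1, Hoxd11, Hoxd12 and Hoxd13. The spread differed widely between Hox genes. Hoxb6 had a pooled SD within control and spastic samples of 0.10 (log2), smaller than that of all but 4.31% of tested genes, and Hoxa7 had 0.14, followed by the head-ward Hoxb5 with 0.17 and Hoxa4 with 0.18. Other genes of paralogs 6 to 8 lay above the median of all tested genes, among them Hoxc6 with 0.26 and Hoxc8 with 0.28. Of the tail-ward genes, 3 varied most: the pooled SD was 0.46 for Hoxb9, 0.58 for Hoxd10 and 0.67 for Hoxd9, and that of Hoxd9 exceeded the SD of 96.9% of tested genes. The median over the 21 Hox genes was 0.28, against 0.22 over all genes tested.

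Differences between arrays of the same title were set beside the differences between groups. Over the 21 genes and the 6 samples with an a and a b array, the median size of the difference between a and b was 0.28 (log2), from 0.13 in spastic sample 1 to 0.44 in control 2. The median size of the spastic minus control difference over the same 21 genes was 0.21. That difference is between groups of 4 and 5 samples, while a minus b sets 1 array against 1. The 2 sizes are therefore unlike measures. Of the 126 differences, 6 were larger than 1. The largest was 2.94 for Hoxd9 in control 3, where array a gave 6.0 and array b 8.94. The next was 2.37 for Hoxd10 in control 2, where array a gave 9.69 and array b 7.32. Both gaps, between single arrays, exceed the largest fitted spastic minus control difference among the 21 tested Hox genes, 0.98. Single samples of the 2 groups could also lie far apart, with Hoxd10 at 6.74 in control 3 and 9.22 in spastic sample 5.

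Spastic and control samples were compared to see whether the Hox code differed between the groups. For most of the code no difference passed the test. The limma test called 2 of the 21 Hox genes (9.52%), against 19.8% of all 6427 genes tested, at an adjusted p under 0.05. Both were higher in spastic samples, Hoxb5 and Hoxd10, where 9.83% of all tested genes were called higher. None of the 21 was called lower by limma, where 9.93% of all tested genes were, and 3 of 21 had an unadjusted p under 0.05 in either direction. The share of Hox genes called was below that of the array as a whole. The median difference over the 21 genes was 0.00 on the log2 scale, against -0.02 over all genes tested, and 19 of the 21 differed by less than 0.5. Control and spastic samples overlapped in every one of the 21: 0 had separate ranges, against 19.5% of all genes tested.

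Hoxb5, a cervical and brachial gene, was 10.09, 10.23, 10.58 and 10.28 (log2 intensity) in controls 1 to 4, 10.75, 10.72, 10.78, 10.78 and 10.44 in spastic samples 1 to 5, and 10.24 in B6C3Fe. Of the spastic samples, 4 lay above all controls and sample 5 lay within their range. The highest single array was a control, array a of control 3 at 10.82. The fitted difference was 0.41 (SE 0.12), a 1.33-fold higher intensity in spastic samples (limma, adjusted p = 0.0382). The fit includes the titled sex, so it departs slightly from the difference between group means, 10.29 ± 0.21 (n = 4) and 10.69 ± 0.14 (n = 5). Of the 9 fits that each left out 1 sample, 2 kept the call, those without control 3 and without spastic sample 5, and the difference ran from 0.33 to 0.54. With the Pcx 3' to 5' ratio in the model it was 0.18 (adjusted p = 0.617), a fit in which 9 of 6427 genes were called in all.

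Hoxd10, the lumbar gene, was 8.05, 8.51, 6.74 and 8.35 in controls 1 to 4, 8.39, 8.63, 8.95, 8.83 and 9.22 in spastic samples 1 to 5, and 9.12 in B6C3Fe (log2 intensity). Spastic sample 1 lay within the control range and the other 4 above it, and control 3 was the lowest sample. The fitted difference was 0.94 (SE 0.29), 1.92-fold, with an adjusted p of 0.0422 (limma). Without control 3 it was 0.56 (adjusted p = 0.0889), and the call was kept in 1 of the 9 fits that each left out 1 sample, the one without control 1. The call was also lost with the sample as a random block (adjusted p = 0.0761), with the letter as a replicate block (adjusted p = 0.0994) and without the sex term (adjusted p = 0.0722). With the Pcx ratio in the model the difference was 1.68 (adjusted p = 0.0679).

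The summed intensity of the 3 motor neuron markers with a probe set, Slc18a3, Isl1 and Prph, was compared beside it. It was 1047 to 1408 on control, 1453 to 2384 on spastic and 583.7 to 790.7 on B6C3Fe arrays. Of the 3 genes, Slc18a3 differed by 2.05 between spastic and control samples, while Prph differed by 0.02 (limma adjusted p = 0.958). Isl1, a defining transcription factor, was above the floor on 5 of 16 arrays. Hoxd10 was 9.06 and 9.18 on the 2 arrays of the B6C3Fe sample. The part of motor neuron content in the Hoxd10 values was not tested.

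Hoxd9, the neighbour of Hoxd10 and a thoracic and lumbar gene, had the largest difference of the 21 without passing the test. It was 6.86, 8.53, 7.47 and 8.92 in controls 1 to 4, 9.15, 8.94, 8.33, 8.89 and 9.08 in spastic samples 1 to 5, and 6.93 in B6C3Fe (log2 intensity). Controls 2 and 4 reached the spastic range and controls 1 and 3 fell well below it. The fitted difference was 0.98 (SE 0.35), 1.97-fold, with an adjusted p of 0.0737 (limma). It was 0.58 without array a of control 3 and 1.89 without the spastic samples titled male, where it passed the test (adjusted p = 0.00995). The platform annotation cites the same sequence record for the Hoxd9 and Hoxd10 probe sets, although their values rank the controls differently, with control 1 lowest for Hoxd9 and control 3 lowest for Hoxd10.

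Hoxd11, the next gene towards the tail end of the cluster, was below the level required for testing. It was 5.93, 6.99, 6.21 and 6.74 in controls 1 to 4, 7.99, 7.62, 7.27, 6.83 and 7.12 in spastic samples 1 to 5, and 5.93, the floor, in B6C3Fe (log2 intensity). Spastic sample 4 lay within the control range and the other 4 above it. The difference was 0.91, and it had an adjusted p of 0.117 (limma) in a fit with no filter on the level. That fit kept the brightest probe set for each gene. Because 3 of the 8 control arrays were at the floor, this difference depends on where the floor is set. With the floor at the 40th percentile the difference was 0.52 for Hoxd9 and 0.64 for Hoxd10. Of the 3 neighbouring genes whose promoters are printed, Hoxd10 passed the test, Hoxd9 did not, and Hoxd11 was tested only in that fit with no filter. Hoxd8, on their head-ward side, was divided: its brighter probe set differed by 0.19 (SE 0.10, limma adjusted p = 0.209) and its other probe set by -0.41. Tail-ward genes of other clusters, also below the level for testing, were not higher in spastic samples. Hoxa10 differed by -0.003 and Hoxa11 by -0.19, both above the floor on all 16 arrays, and Hoxb13 by -0.13.

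**Figure D2:**
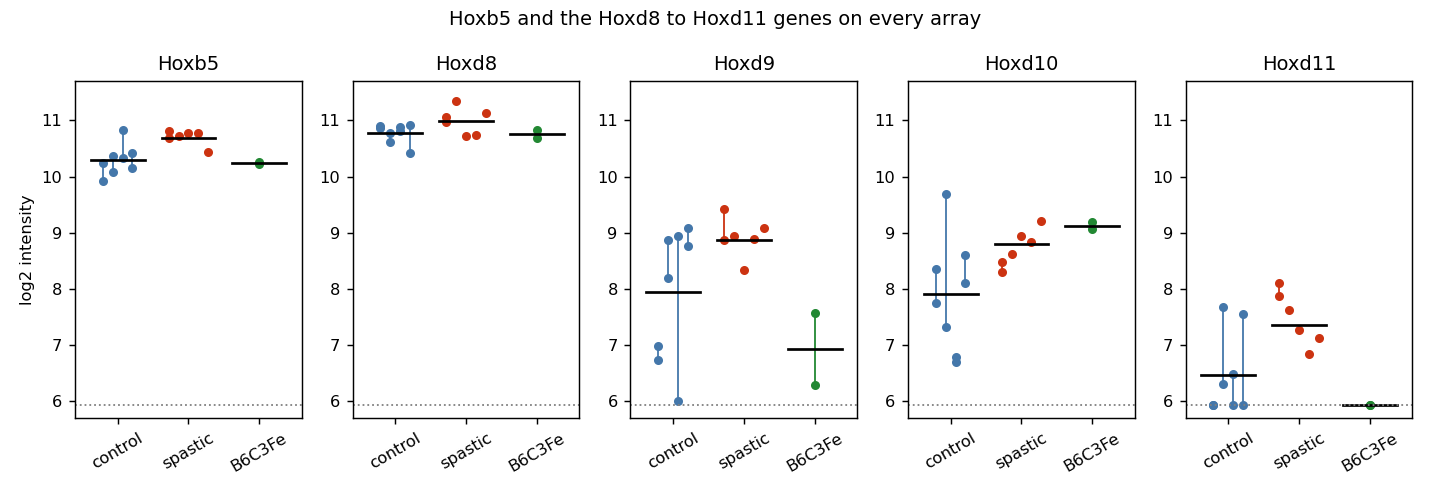
Log2 intensity of Hoxb5, Hoxd8, Hoxd9, Hoxd10 and Hoxd11 on every array (points; arrays of 1 sample are joined by a line) in control, spastic and B6C3Fe, with the mean of the samples as a black bar and the floor of 5.93 as a dotted line. Spastic arrays of Hoxd9 lie between 8.33 and 9.43, overlapping the highest control arrays, and control arrays spread from 6.0 to 9.08.

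The other genes with the largest differences did not pass the test. Hoxb9, a thoracic gene, was 8.52, 8.31, 7.51 and 8.62 in controls 1 to 4, 9.31, 8.64, 8.69, 8.32 and 8.24 in spastic samples 1 to 5 and 8.0 in B6C3Fe. The spastic samples overlapped the controls, with sample 1 the highest of all, and the difference was 0.41 (SE 0.28, limma adjusted p = 0.326). Hoxb1 was 8.38, 8.22, 7.95 and 7.65 in controls, 7.97, 8.18, 7.59, 7.23 and 7.77 in spastic samples and 8.21 in B6C3Fe. The samples were interleaved, and the difference was -0.34 (SE 0.21, limma adjusted p = 0.271). Hoxb3, active from the hindbrain into the neck, was 7.78, 7.89, 7.46 and 7.70 in controls, 7.71, 6.52, 7.85, 7.47 and 7.54 in spastic samples and 8.23 in B6C3Fe. Spastic sample 2 was the lowest, and the difference was -0.26 (SE 0.27, limma adjusted p = 0.533).

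Between spastic and control samples, none of the trunk genes passed the test. Hoxb6 was 11.03 ± 0.07 in control (n = 4), 11.04 ± 0.12 in spastic samples (n = 5) and 10.97 in B6C3Fe, a fitted difference of 0.00 (SE 0.08) between spastic and control. Hoxa7 differed by 0.04 (SE 0.11) and Hoxc6, which marks brachial levels in motor neurons, by 0.03 (SE 0.19). None of the 8 tested genes of paralogs 6 to 8 was called by limma and 0 of 8 had an unadjusted p under 0.05, with a median difference of -0.12. Of paralogs 1 to 5, 1 of 8 was called, Hoxb5, with a median of -0.09. The 4 genes of paralog 9 had a median of 0.25, from -0.21 for Hoxa9 through 0.10 for Hoxc9 to the values of Hoxb9 and Hoxd9, and 0 of 4 were called by limma, with 1 of 4 at an unadjusted p under 0.05. These medians stand beside -0.02 over all genes tested. By cluster, the median was -0.17 over 6 Hoxa genes, -0.24 over 7 Hoxb genes, 0.03 over 5 Hoxc genes and 0.94 over 3 Hoxd genes.

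Second probe sets did not always follow the first. That of Hoxb8 differed by 0.50 where the brighter one differed by -0.25 (SE 0.13, limma adjusted p = 0.22); the former was above the floor on 13 of 16 arrays and carries the suffix that marks sequence shared between transcripts. For Hoxa6 the values were -0.11 and -0.24, and for the 3 probe sets of Hoxa4 above the floor they were -0.02, -0.08 and -0.18. The other Hoxa4 probe set, which cites the same sequence record as the tested one, was at the floor on all 16 arrays. Some tested probe sets also carry a suffix: r for Hoxa4, Hoxa6 and Hoxb8, and f for Hoxc9.

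**Figure D3:**
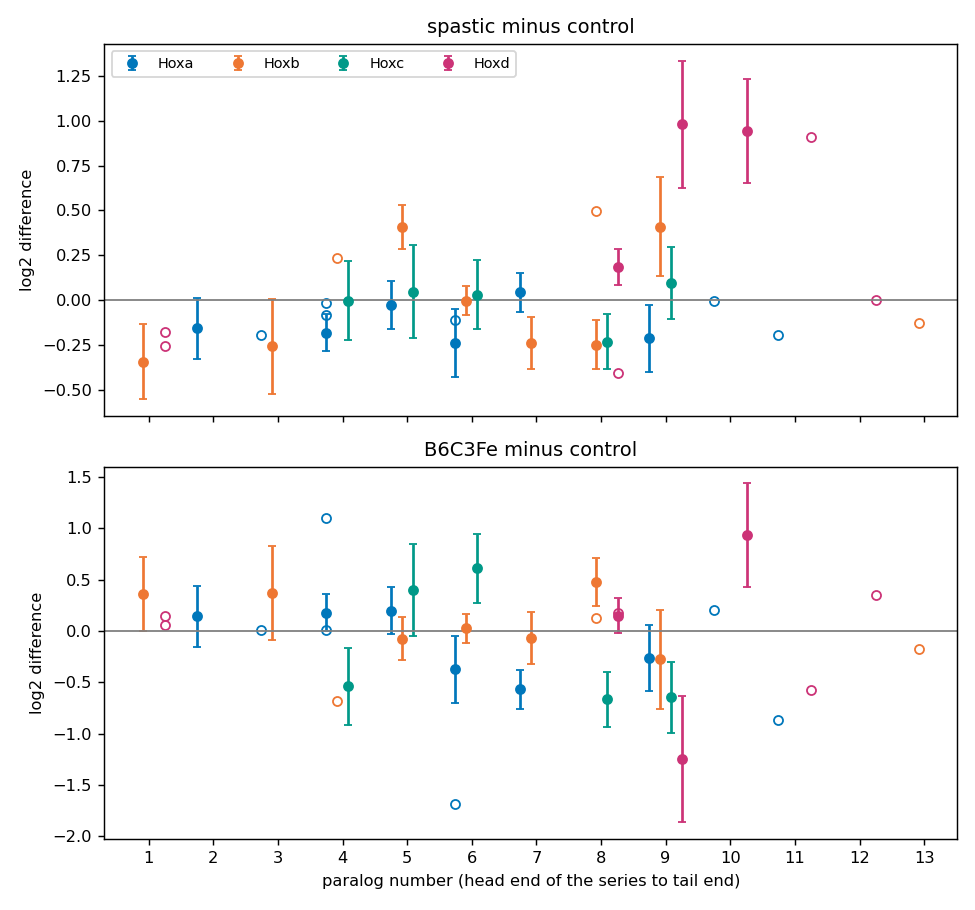
Log2 difference of each Hox probe set against its paralog number, for spastic minus control (top) and B6C3Fe minus control (bottom), coloured by cluster. Filled points with bars (1 SE) are the 21 tested genes; open points without bars are other probe sets above the floor on at least 1 array. In the top panel 19 of the 21 tested genes lie within 0.5 of 0, and Hoxd9 and Hoxd10 lie above it; the open point of Hoxd11 depends on the floor, where 3 of 8 control arrays lay.

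The B6C3Fe sample, a 1-month male of a hybrid stock, was compared with the controls and the spastic samples; with 1 sample in that group, the spread is taken from the other groups. In B6C3Fe minus control, limma called 0 of 21 Hox genes, against 0.389% of all genes tested, and 2 of 21 had an unadjusted p under 0.05. Hoxa7 was 10.44, 10.67, 10.49 and 10.43 in controls 1 to 4 and 9.95 in B6C3Fe, where the arrays gave 10.16 and 9.73. The B6C3Fe sample was below every control and every spastic sample, but its array a lay above array b of control 1, at 10.15. The difference was -0.57 (SE 0.19) and was not called. Hoxc8, a brachial and thoracic gene, was 10.88, 10.71, 10.41 and 10.47 in controls and 9.84 in B6C3Fe. This too was below every other sample, but array a of B6C3Fe, at 10.04, lay above spastic sample 4, at 9.92. The difference was -0.67 (SE 0.27) and was not called. How many of all genes tested place the B6C3Fe sample lowest was not counted.

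By paralog number, the differences of the B6C3Fe sample from the controls are given as a description of 1 sample, and whether they differ between paralog classes was not tested. Of paralogs 1 to 5, 6 of 8 tested genes were higher, with a median difference of 0.19, of paralogs 6 to 8, 4 of 8 with a median of -0.02, and of paralog 9, 0 of 4 with a median of -0.46. The median over all genes tested was 0.01. The paralog 9 differences were -0.26 for Hoxa9, -0.28 for Hoxb9, -0.65 for Hoxc9 and -1.25 for Hoxd9 (SE 0.61, limma adjusted p = 0.37), and no single one passed the test. Hoxd10, the tested gene of paralogs 10 to 13, was at 0.93 (SE 0.51, limma adjusted p = 0.412). Among genes below the level for testing, Hoxb4, above the floor on 8 of 16 arrays, was at -0.69 and Hoxa3 at 0.01. Tail-ward, Hoxa10 was at 0.20, Hoxa11 at -0.87 and Hoxb13 at -0.17. For Hoxa11 the B6C3Fe sample, at 6.75, was below every other sample, an order whose share over all genes was not counted. Neither B6C3Fe array was above the floor for Hoxd11, and 3 of 8 control arrays were not either. The second Hoxa6 probe set was 5.93 and 5.95 on the B6C3Fe arrays against 6.91 to 8.41 on the control arrays, while the tested probe set of Hoxa6 gave 8.54 against 8.95 ± 0.37 (n = 4).

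In spastic minus B6C3Fe, limma again called 0 of 21 Hox genes, against 2.05% of all genes tested, and 4 of 21 had an unadjusted p under 0.05. These were Hoxd9 with 2.23 (SE 0.61, 4.68-fold, adjusted p = 0.092), Hoxa7 with 0.61 (adjusted p = 0.123), Hoxb8 with -0.72 (adjusted p = 0.135) and Hoxb5 with 0.48 (adjusted p = 0.236). For Hoxd9 all 5 spastic samples, from 8.33 to 9.15, lay above the B6C3Fe sample at 6.93, whose arrays gave 7.57 and 6.30. For Hoxd10 the difference was 0.01, with B6C3Fe inside the spastic range. The 2 comparisons with B6C3Fe share its sample, and those with control share the controls, so the same sample enters each pair of values.

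**Figure D4:**
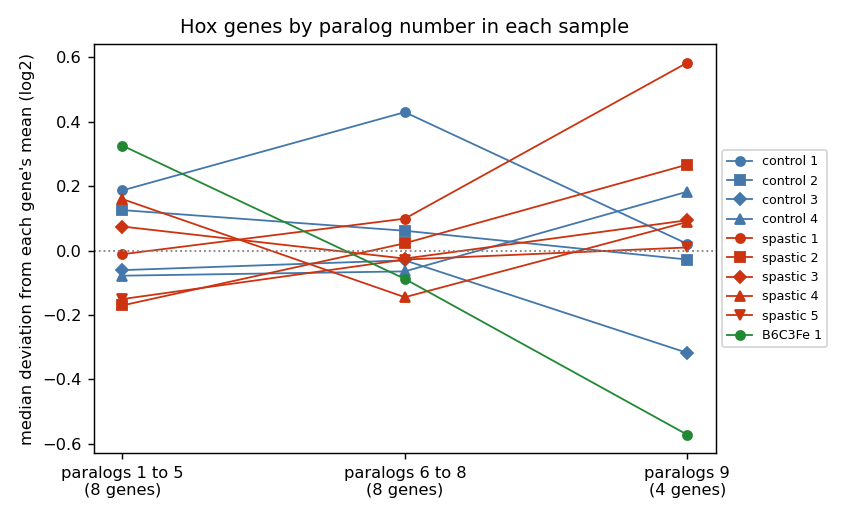
Median deviation, in each of the 10 samples, of the tested Hox genes of paralogs 1 to 5 (8 genes), 6 to 8 (8 genes) and 9 (4 genes) from each gene's mean over the samples (log2). For paralog 9 the 5 spastic samples lie from 0.01 to 0.58, the 4 controls from -0.32 to 0.18 and the B6C3Fe sample at -0.57, so spastic and control samples overlap.

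Measured within each sample against the gene's own mean over all 10, paralog 9 genes had a median deviation of 0.58, 0.27, 0.09, 0.09 and 0.01 in spastic samples 1 to 5 and of 0.02, -0.03, -0.32 and 0.18 in controls 1 to 4 (log2). Spastic samples were all above 0 and controls on both sides of it, and control 4 was higher than spastic samples 3, 4 and 5. Paralogs 6 to 8 deviated by 0.43 in control 1, and by -0.15 to 0.10 in the other 9 samples. For paralogs 1 to 5 the B6C3Fe sample was highest at 0.33, and the rest lay between -0.17 and 0.19.

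Age and titled sex were also compared. Between the 12-month and the 9-month controls, 2 samples each, limma called 0 of 21 Hox genes, against 0% of all genes tested. Of the 21, 15 were higher at 12 months, the median difference was 0.26 against -0.01 over all genes, and 2 of 21 had an unadjusted p under 0.05. These were Hoxa6 with 0.58 (SE 0.23) and Hoxc5, a cervical gene, with 0.79 (SE 0.31), each with an adjusted p of 0.906. Hoxc5 was 8.01 and 8.26 in the 12-month controls and 7.29 and 7.40 in the 9-month controls. Single arrays of the 2 ages overlapped, with array a of control 1 at 7.71 and array b of control 3 at 7.82. Between titled sexes limma called 0 of 21 Hox genes, against 0% of all genes, and 2 of 21 had an unadjusted p under 0.05: Hoxd8 with 0.32 (SE 0.10) and Hoxa5, a cervical gene needed for respiratory development, with -0.38 (SE 0.13), female minus male, each with an adjusted p of 0.798. The spastic arrays that do not match their titled sex enter this contrast, and every other fit with a sex term, as titled.

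The proteins that work with Hox factors or hold their clusters open or closed were summarised from lists. In spastic minus control, limma called 0 of 4 tested TALE cofactors, the homeodomain partners of Hox proteins, with 2 of 4 at an unadjusted p under 0.05; Pknox1 was nearest at -0.71 (adjusted p = 0.0514). Of the 4 tested regulators upstream of the clusters and in retinoic acid signalling, 1 was called, Aldh1a1, a retinal dehydrogenase, at -0.41 (adjusted p = 0.0395). Of 14 tested Polycomb genes, whose products keep Hox clusters silent, 3 were called: Cbx6 at 0.63 (adjusted p = 0.00218) and Phc1 at 0.41 (adjusted p = 0.0404) rose, and Suz12, a core subunit of the histone H3 methylating complex, fell by 0.77 (adjusted p = 0.0163). None of 7 Trithorax-type activators and none of 5 boundary and looping factors was called by limma, with 3 and 0 at an unadjusted p under 0.05. In motor neuron identity genes 1 of 6 rose, Slc18a3, the vesicular acetylcholine transporter, by 2.05, and 1 fell, Gfra1, a receptor for glial-derived growth factor, by 1.22 (adjusted p = 0.0174). Of 8 tested homeobox genes of the cord outside the clusters, 1 was called, Nkx6-2, an oligodendrocyte and progenitor factor, which rose by 0.44 (adjusted p = 0.0299). Of the brain regional genes 1 was tested and 0 were called by limma, with 1 at an unadjusted p under 0.05. These counts stand beside 19.8% of all genes tested, and the adjusted p-values are limma's.

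Genes flanking the 4 clusters, the 6 nearest on each side with a probe set, gave 34 tested genes, of which 8 were called in spastic minus control, a share near the 19.8% of all genes tested. Zfp385a rose by 0.73 and Nfe2l1 by 0.43, while Gsdme fell by 1.42, Cycs, which encodes cytochrome c, by 0.88, Skap2 by 0.54, Cbx5, which encodes a heterochromatin protein, by 0.52, Atf2 by 0.50 and Snx10 by 0.48. The median of the 34 was -0.14, and 11 were higher in spastic samples.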

How the data were processed

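RNA was measured on 16 single-colour arrays. The authors' deposited intensity values are linear, 1 per probe set and array, and their mean after trimming was 800.4 to 800.5 on every array, so they were not normalized again. They were made with software not given in the sources used here. Intensities under the 20th percentile of all values (60.9, log2 5.93) were set to it, log2 was taken, and arrays a and b of a title were averaged, giving 10 samples. Probe sets with a mean log2 above the 40th percentile (7.62) of the 12422 non-control probe sets were tested, the brightest for each gene, 6427 in all. Names come from GEO's platform annotation, which can be old.

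Tests used limma 3.58.1 under R 4.3.3 (group and titled sex in the model, eBayes with a trend, 2-sided tests, Benjamini-Hochberg adjustment over all 6427, called at an adjusted p under 0.05). They were first tried on simulated data in which every array was drawn independently. That trial does not cover any likeness between arrays a and b of a title. With 10 samples, their number limits the precision. Fold changes of genes near the floor are understated.

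Every Hox probe set was accounted for. Sample values were given for Hox genes called in a group contrast and for the 6 tested ones with the largest spastic minus control difference; up to 4 called genes of each other list were named, and flanking genes where called. Values of Hoxd11, Hoxa7, Hoxc8 and Hoxc5 were added after they were seen. Members and lists were chosen with earlier results of these data known. Promoters are RefSeq's (GRCm38.p6), with Python 3.11.15 and pandas 2.3.3 for counts. Alternatives covered the floor, the filter, the normalization, the use of arrays a and b, the model terms and leaving out samples.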

Additional observations from a re-analysis of the deposited data

Results flagged for a closer look

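Among the 21 tested Hox genes, each looked at in the 4 control and the 5 spastic samples, 4 of 42 groups held a sample far from its neighbours by Dixon's criterion, which chance alone meets in about 5% of groups. Hoxb5 was 10.44 (log2 intensity) in spastic sample 5, where the other spastic samples lay between 10.72 and 10.78; this is the sample that falls within the control range of that gene. Hoxb3 was 6.52 in spastic sample 2, below the others at 7.47 to 7.85. Hoxa2 was 8.62 in spastic sample 4, above the others at 8.21 to 8.31. Hoxb8 was 10.94 in control 1, above the other controls at 10.34 to 10.37, and near the B6C3Fe sample at 10.90.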

How the results depend on the processing

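For spastic minus control the count of Hox genes called was 2 under 8 alternatives, though in the fit with the letter as a replicate block the 2 were Hoxb5 and Hoxd9. It was 1 (Hoxb5) with a filter at the 60th percentile, with the sample as a random block and without a sex term, 1 (Hoxd9) without the spastic samples titled male, 0 with no filter, with only arrays lettered a, with eBayes without a trend and when the Pcx ratio was a covariate, and 0 to 1 when each sample was left out. The share of all genes called moved as well, from 0.14% with the Pcx ratio to 29.5% with every array as its own replicate. Over the alternatives in which each was fitted, the difference of Hoxb5 was above 0 in 25 of 25 (0.18 to 0.54) and it was called in 13, that of Hoxd10 in 24 of 24 (0.56 to 1.68) with 8 calls, and that of Hoxd9 in 24 of 24 (0.52 to 1.89) with 4. For spastic minus B6C3Fe the count was 1 with no filter, 2 with every array its own replicate, 1 with the letter as a replicate block and 1 without the spastic samples titled male. For B6C3Fe minus control it was 1 with no filter, 2 with every array its own replicate and 2 with the letter as a replicate block. With no filter the gene was Hoxd12, above the floor on 1 array only. The causes of these changes were not tested. Age and titled sex gave 0 Hox calls in each alternative run.

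The letters a and b were not taken as pairing samples: correlations of the a minus b differences between the 15 pairs of samples ran from -0.04 to 0.16. The spastic minus control fit with the letter as a replicate block, with 2 Hox genes called, therefore stands only as an alternative.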

Other observations

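Further probe sets carry Hox names but more than 1 symbol, or name an antisense transcript, and were outside the rule. A probe set shared by Hoxb8 and Hoxb7 was 10.29 ± 0.48 (log2 intensity, SD, n = 4) in control, 10.69 ± 0.22 (n = 5) in spastic samples and 10.35 in B6C3Fe. The probe sets shared by Hoxd4 and Hoxd3 gave 9.39 ± 0.56 and 8.31 ± 0.16 in control (n = 4), 9.48 ± 0.35 and 8.06 ± 0.11 in spastic samples (n = 5) and 9.36 and 7.96 in B6C3Fe. Hoxa11os, the antisense transcript of Hoxa11, was 7.70 ± 0.28 in control (n = 4), 7.43 ± 0.49 in spastic samples (n = 5) and 8.14 in B6C3Fe with 1 probe set, while its other probe set was at the floor on all 16 arrays.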
